A study of Drosophila melanogaster with 16 samples.

Results

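The genes described here code for the machinery that moves nucleosomes and for the Polycomb and trithorax groups that keep genes off or on. They were chosen by name from a fixed list of 36 symbols, with no measured value used. All 36 had at least 1 edited position in the single-cell data and 35 in the bulk data, out of 6380 and 5003 genes there and 6835 genes in either, and Pc was the gene without a bulk position. RNA editing was measured with FMR1-ADARcd-V5, a fusion of the RNA-binding protein FMR1 to the catalytic domain of ADAR. The domain converts adenosines near the bound site into inosines. Sequencers report these as G, so that an A-to-G change marks an RNA the fusion has met. The comparison of arsenite with Schneider's medium was made in the study to predict which RNAs enter stress granules, the cytoplasmic assemblies that FMR1 joins under oxidative stress.

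S2 cells, a line derived from Drosophila embryos, came from 1 stable clone with the fusion under the copper-inducible metallothionein promoter. They were induced for 4 h with 1 mM CuSO4 and then kept for 4 h in Schneider's medium (3 samples) or in 0.5 mM sodium arsenite (3 samples), and 1 sample was left uninduced and kept in Schneider's. Dissociated brains of L3 larvae carried a UAS transgene of the fusion that also makes EGFP and elav-GeneSwitch-Gal4, a neuronal driver that needs RU486, and received Schneider's (3 samples) or 0.5 mM arsenite (3 samples) for 4 h, with 1 sample not induced. Each brain sample pooled many larvae of both sexes and held neurons and glia, while the driver acts in neurons. Single S2 cells, 1 per well on 2 plates of 384 wells, were induced for 4 h and kept for 4 h in Schneider's, arsenite or Krebs-Ringer bicarbonate buffer (96 wells of each per plate), or induced for 2 h and kept for 2 h in Schneider's (80 wells per plate), and 16 wells per plate were empty. The study describes its S2 samples as repeated experiments and its brain samples as biological replicates. It does not say whether the S2 experiments began from separate cultures, so p-values measure the spread between these samples, part of which may be technical.

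Chromatin remodellers are ATPase complexes that slide, evict or exchange nucleosomes. Trithorax-group proteins and the COMPASS methyltransferases mark and maintain active genes, whereas the Polycomb complexes compact chromatin and methylate histones at silent developmental genes. In mouse brain the relative of FMR1 binds long coding mRNAs, among them mRNAs of chromatin regulators. The bulk reads cover positions where edits were called and not whole genes, so that a low read number can be few molecules of an RNA per cell or few cells that express it, which cannot be told apart in bulk samples.

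The average editing frequency of a gene is the mean, over its A-to-G positions, of the share of reads with G. Depth at all such positions was between 247155 and 458251 reads per bulk sample after the collapse of molecular identifiers, and the 35 genes together had between 4622 and 7454. Over the induced samples of both tissues together, the median was 8 reads per position and sample, for these genes and for all genes alike. Single positions are therefore known only coarsely. Pooled over the 35 genes, 0.468% of reads were edited in uninduced S2 cells, between 10.9% and 11.0% in Schneider's and between 19.6% and 20.6% in arsenite. In brains the shares were 0.712% uninduced, between 4.70% and 6.04% in Schneider's and between 8.29% and 13.2% in arsenite. Brain arsenite replicate 1 was the highest of its group over all genes as well, at 10.6% of reads against 7.90% and 7.09% in the other replicates. Neuron markers made up between 349 and 426 of 100000 reads in brains and between 49.3 and 60.1 in S2 cells. Of the 12 neuron markers, brp and VAChT had 375 and 184 reads over the 6 induced brain samples and 2 and 0 in S2 cells. Syx1A alone had fewer raw reads in brains, 847, than in S2 cells, 881. Nrg had 1185 and 275 in the same order, and ChAT and Rdl had no read in either tissue. These counts per marker are not scaled to depth. Depth was between 247155 and 367839 reads per induced brain sample and between 381618 and 458251 per induced S2 sample. Haemocyte markers gave between 357 and 381 of 100000 reads in S2 cells and between 44.5 and 63.7 in brains. Glial markers gave between 9.44 and 19.1 of 100000 reads in brains and between 3.68 and 6.72 in S2 cells. Of the 6 markers, nrv2 had 232 reads in brains and 78 in S2 cells, moody 17 and 40 and Gli 8 and 16, while repo, alrm and Gs2 had no edited position.

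The 35 genes held 573 A-to-G positions in the bulk data. Their median was 13 positions per gene, against 4 over all genes, and their transcripts were long, with a median of 5495 nt once spliced against 2611 nt. Per kilobase the median was 1.92 positions against 1.497 over all genes. The most positions were in dom, the ATPase of the Tip60 complex that exchanges a histone variant, with 62 along a transcript of 10626 nt. E(bx), the largest subunit of the NURF remodeller, had 57 in 9296 nt, kis, a relative of CHD7, 44 in 18528 nt, Sin3A, the scaffold of a deacetylase complex, 41 in 7734 nt, and trx, the founding trithorax histone methyltransferase, 35 in 14052 nt. Per kilobase, Caf1-55, a small histone chaperone subunit shared by several complexes, stood highest with 8.21 (15 positions in 1828 nt) and ash2 lowest with 0.513 (1 position).

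**Figure D1:**
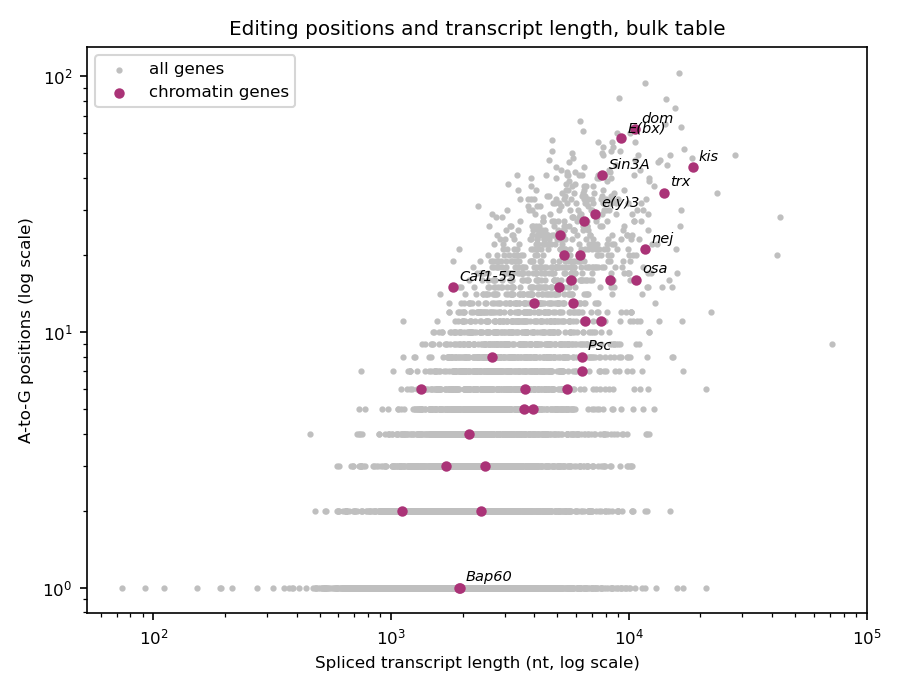
Number of A-to-G positions (vertical, log scale) against the spliced transcript length in nt (horizontal, log scale) for every gene of the bulk data, with the chromatin genes in purple. Most chromatin genes lie to the right, and dom with 62 and E(bx) with 57 positions stand among the most edited genes of their length.

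Of the 573 positions, 536 (93.5%) lay in coding sequence, 18 in a 5′ UTR and 13 in a 3′ UTR of the transcript that held most of the gene's positions. Over all genes 88.0% of positions were coding and 6.07% were in a 3′ UTR. Among coding positions of the chromatin genes 34.1% were at the first base of the codon, 37.3% at the second and 28.5% at the third, against 30.5%, 45.3% and 24.1% over all genes. The base before the edited A was T at 38.2% of positions and G at 3.84%, and the base after it was G at 50.4%, close to the 36.2%, 4.93% and 50.04% over all genes. Both sets of shares describe the positions and were not tested.

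An edited read was found in both S2 cells and brains at 463 of the 573 positions (80.8%), in S2 cells only at 82, in brains only at 19 and in neither induced set at 9. Over all genes 61.3% of positions were edited in both. Finding an edited read also depends on depth. These genes took a larger part of the reads in brains than in S2 cells. In Schneider's replicate 1 they held 7454 of 367839 reads in brains and 5988 of 458251 in S2 cells, at 573 of 32876 positions. The part of depth in the 80.8% and 61.3% was not tested. How far edits were spread over positions differed between genes. The most edited position of dom held 6.42% of its edited reads in S2 cells and 8.16% in brains, and that of E(bx) 6.89% and 8.64%. In kis the shares were 7.75% in S2 cells and 27.7% in brains, and in trr 14.97% and 33%. A single position held 43.2% and 51.1% of the edited reads of Caf1-55, 33.3% and 41.7% of those of Asx, and 43.8% and 58.8% of those of Set1, in the same order.

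The site-by-site data are shown for the 4 genes off chromosome arm 2R with the most positions, at the 3 positions of each with the most reads. Coordinates are on BDGP6. The edited A is in capitals between its neighbours on the transcript strand, because only this context was available.

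E(bx) 3L 242753, coding: aAg
E(bx) 3L 242683, coding: tAa
E(bx) 3L 243476, coding: cAc
kis 2L 240772, coding: cAc
kis 2L 239711, coding: cAa
kis 2L 239717, coding: cAg
trx 3R 14268961, coding: tAc
trx 3R 14267631, coding: cAg
trx 3R 14274381, coding: gAa
e(y)3 X 19635613, coding: tAg
e(y)3 X 19635800, coding: cAg
e(y)3 X 19636366, coding: tAg

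In E(bx), the position 242753, at nucleotide 3649 of the transcript, was edited in 4 of 65 Schneider's reads and 12 of 61 arsenite reads of S2 cells, against 0 of 65 and 1 of 54 of brains. Its difference in S2 cells was not called (13.7 ± 4.69 points, adjusted p = 0.0968), where a call needed an unadjusted p under 0.01 in limma. The position 243476, at nucleotide 2926, was called in S2 cells (22.1 ± 4.6 points, adjusted p = 0.0317), with 1 of 53 Schneider's reads and 10 of 44 arsenite reads of S2 cells, against 1 of 45 and 3 of 60 of brains. At 242683 the counts were 0 of 42 Schneider's reads and 2 of 43 arsenite reads of S2 cells, against 0 of 63 and 2 of 58 of brains. All 3 positions were at 0 in uninduced S2 cells. The 19, 31 and 15 reads there (in the order 242753, 243476 and 242683) allow shares of up to 15.8%, 9.68% and 20%, from 3 counts and for counting error only.

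In kis, the positions 239711 and 239717 lie a few bases apart and share reads. They were edited in 3 of 67 Schneider's reads and 2 of 57 arsenite reads of S2 cells, against 0 of 58 and 1 of 62 of brains at 239711, and in 3 of 66 Schneider's reads and 2 of 55 arsenite reads of S2 cells, against 0 of 54 and 1 of 62 of brains at 239717. Position 240772 was edited in 2 of 55 Schneider's reads and 9 of 62 arsenite reads of S2 cells, against 2 of 66 and 2 of 71 of brains, with an arsenite difference in S2 cells of 11.3 ± 3.14 points, adjusted p = 0.0621. None of the 3 passed the threshold in either tissue.

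In trx, position 14268961 was edited in 7 of 27 Schneider's reads and 7 of 22 arsenite reads of S2 cells, against 10 of 51 and 6 of 48 of brains. Position 14267631 was edited in 2 of 30 Schneider's reads and 5 of 25 arsenite reads of S2 cells, against 0 of 45 and 3 of 46 of brains, and 14274381 in 0 of 22 Schneider's reads and 1 of 15 arsenite reads of S2 cells, against 0 of 39 and 1 of 61 of brains. These positions had under 10 reads in at least 1 S2 sample, so they were tested at most in brains, and none passed.

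In e(y)3, a PBAP subunit, position 19635613 was the most read of all 12, with 2 of 64 Schneider's reads and 7 of 29 arsenite reads of S2 cells, against 2 of 131 and 11 of 120 of brains. Position 19635800 was edited in 4 of 37 Schneider's reads and 9 of 37 arsenite reads of S2 cells, against 5 of 81 and 5 of 64 of brains. Position 19636366 was edited in 3 of 68 Schneider's reads and 6 of 33 arsenite reads of S2 cells, against 1 of 44 and 1 of 44 of brains, a difference of 13.8 ± 4.75 points, adjusted p = 0.0985 in S2 cells.

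**Figure D2:**
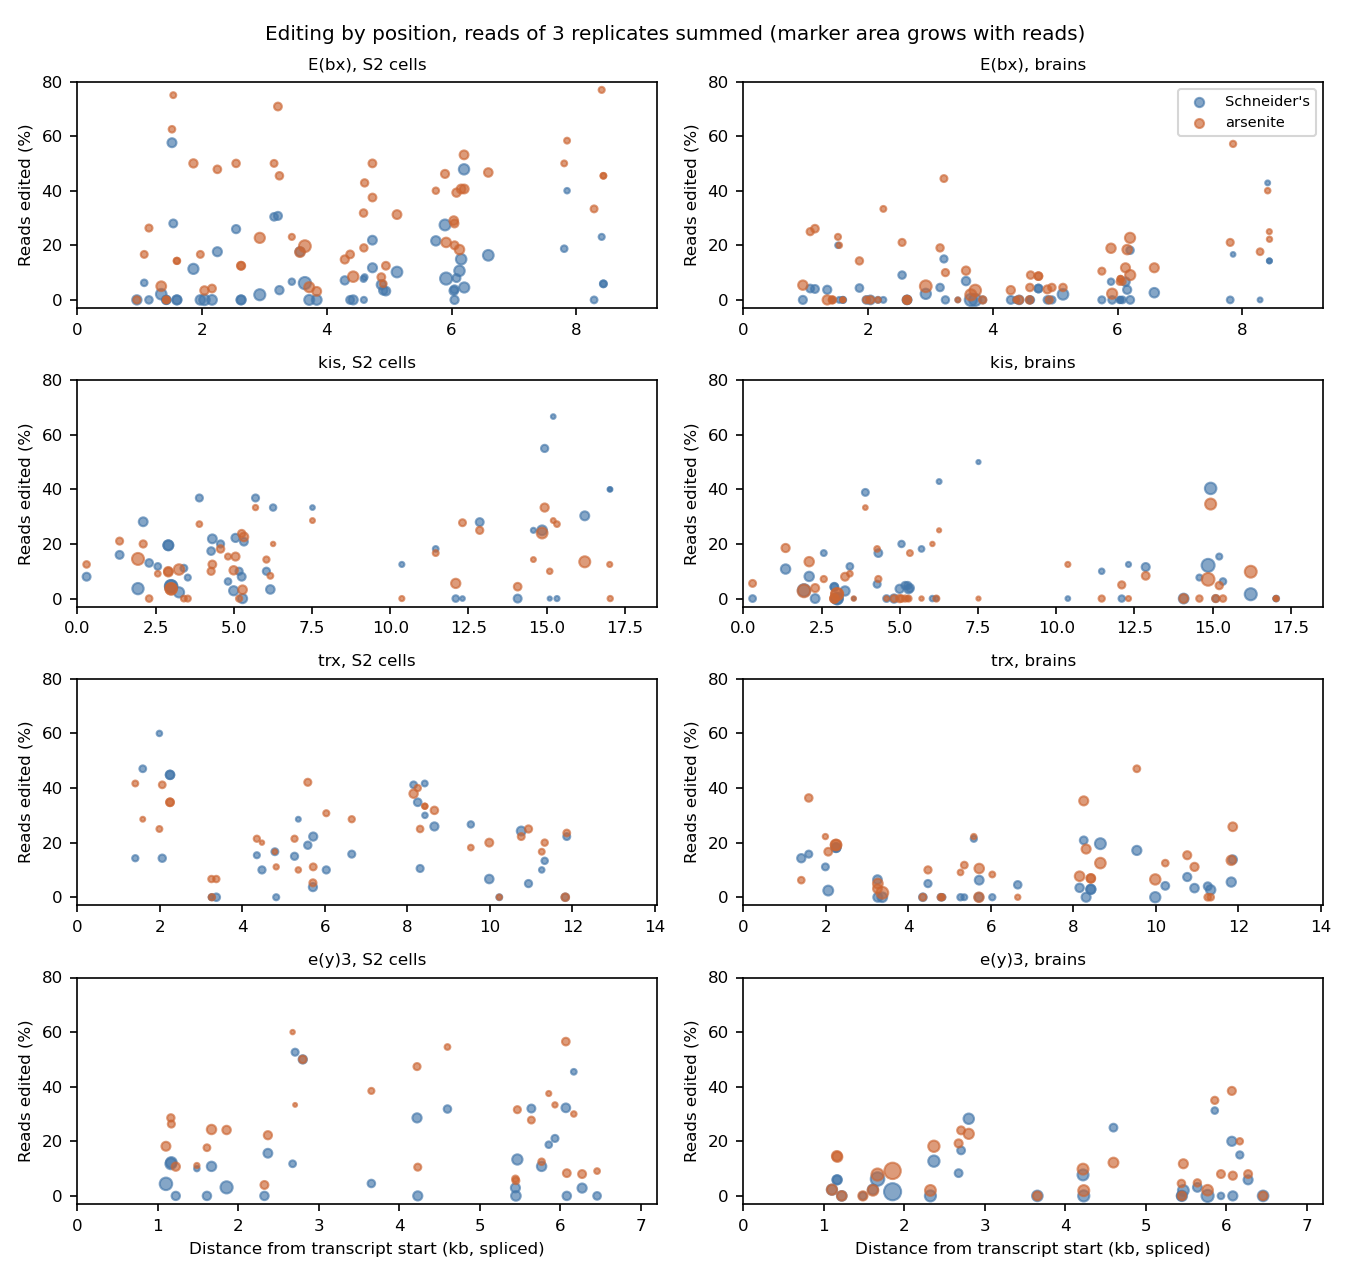
Share of reads edited in % (vertical) at each position of E(bx), kis, trx and e(y)3 against the distance from the start of the spliced transcript in kb (horizontal), in S2 cells (left) and brains (right), with the reads of 3 replicates summed and marker area growing with the reads. Arsenite points lie mostly above Schneider's points in E(bx), while in kis the points of both conditions are mixed.

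Single positions were tested where every one of the 6 samples had 10 or more reads. In S2 cells 84 positions in 18 of the genes could be tested, of which 8 rose with arsenite and none fell, that is 9.52%, while 16.4% of all 9118 tested positions rose. The 8 positions were in 4 genes, Caf1-55 (3), E(bx) (2), Sin3A (2) and Snr1 (1), and they are named after their values were seen. The E(bx) position at 3L 239624, nucleotide 6590, rose from 8 of 49 to 14 of 30 reads (31.3 ± 4.52 points, adjusted p = 0.0145). The largest differences were in Sin3A, at transcript nucleotides 1803 (38.6 ± 5.76 points, adjusted p = 0.0152) and 1784 (32.9 ± 5.41 points, adjusted p = 0.019), which lie close together. In Snr1, a core SWI/SNF subunit, nucleotide 159 rose by 14.5 ± 2.83 points, adjusted p = 0.0273, although the average of Snr1 over its 6 positions did not pass the threshold. The count of positions was 4 without Schneider's replicate 2, 5 without Schneider's replicate 3, and 13, 12 and 16 without arsenite replicates 1, 2 and 3.

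In brains 121 positions in 26 genes could be tested and 10 rose (8.26%), against 6.18% of 5018 positions over all genes. Of the 10, 5 were in Sin3A, 2 in ph-p and 1 each in dom, brm and Caf1-55. At Sin3A nucleotides 1995 and 1992 the edited and total reads were the same in every induced brain sample, so that these 2 of the 10 are not separate measurements. The pair in Sin3A at nucleotides 1803 and 1784 rose in brains too, by 16.4 ± 3.01 points, adjusted p = 0.0778, and by 19.2 ± 3.61 points, adjusted p = 0.0795. Caf1-55 nucleotide 747 rose in both tissues, by 16.4 ± 3.98 points, adjusted p = 0.0451 in S2 cells and by 9.65 ± 2.46 points, adjusted p = 0.138 in brains. In ph-p the position at X 2130106 rose by 34.1 ± 7.27 points, adjusted p = 0.0974. Of the 10, 1 had an adjusted p under 0.05. Without brain arsenite replicate 3 the count of positions was 16.

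Averaged over positions, 10 of the 35 genes were called more edited in arsenite in S2 cells and none less edited, at an unadjusted p under 0.01, the level the study used. This is 28.6% of them, and 23.6% of the 4589 genes tested were called higher, so the share is near that of all genes. The median difference over the 35 genes was 11.4 points (percentage points of reads edited), beside 10.7 points over all tested genes. The 10 genes had adjusted p between 0.0182 and 0.0409. Every arsenite sample lay above every Schneider's sample in 23 of the 35 genes, which was so for 51.4% of all genes, and below in 1, kis, which was so for 0.458% of all genes. The count was 5, 6 and 5 when Schneider's replicates 1, 2 and 3 were left out in turn. In single wells summed per plate 16 of 36 were called higher, and in brains 3 of 34, as described below.

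**Figure D3:**
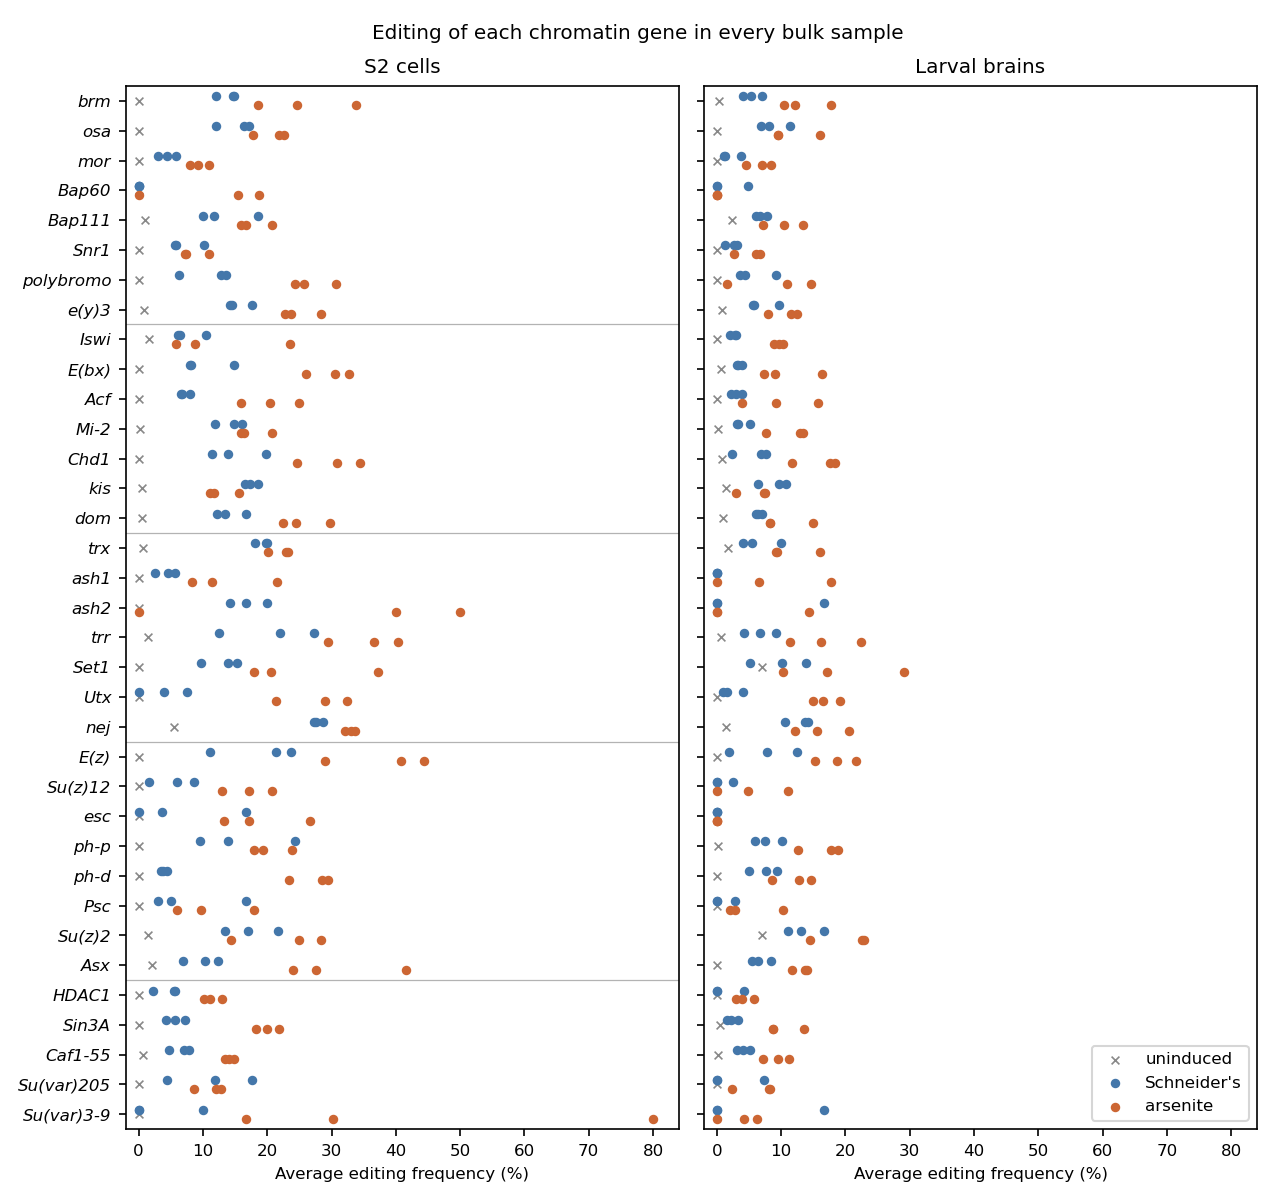
Average editing frequency in % (horizontal) of each of the 35 genes (rows, ordered by role) in every bulk sample of S2 cells (left) and brains (right). Uninduced samples (crosses) lie at or near 0, and in S2 cells the 3 arsenite points (orange) lie right of the 3 Schneider's points (blue) in 23 genes.

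Among the SWI/SNF genes, 1 of 8 was called in S2 cells. That gene was polybromo, which gives the PBAP form of the complex its name, with 12.8, 6.21 and 13.7% in Schneider's and 25.7, 24.3 and 30.7% in arsenite. The groups did not overlap and differed by 16.02 ± 3.15 points (SE), adjusted p = 0.0264 (limma, as for every such value below, n = 3 per group). In brains polybromo had 3.61, 4.42 and 9.18% in Schneider's and 14.6, 10.9 and 1.63% in arsenite, with overlap and adjusted p = 0.577.

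The ATPase brm had 14.9, 12.01 and 14.6% in Schneider's and 24.7, 33.8 and 18.6% in arsenite in S2 cells. All arsenite samples were higher, but they spread widely and the difference of 11.8 ± 4.27 points, adjusted p = 0.0896 was not called. In brains brm had 4.07, 5.28 and 7.08% in Schneider's and 17.8, 12.1 and 10.4% in arsenite, again without overlap (7.93 ± 2.52 points, adjusted p = 0.196).

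The subunit osa, which defines the BAP form, had 16.5, 17.2 and 12.1% in Schneider's and 17.8, 21.9 and 22.5% in arsenite in S2 cells, a difference of 5.51 ± 2.54 points, adjusted p = 0.149. Brains gave 8.06, 11.4 and 6.79% in Schneider's and 16.1, 9.54 and 9.58% in arsenite, and the groups overlapped. The scaffold mor was low in both, with 2.94, 5.8 and 4.41% in Schneider's and 10.97, 9.28 and 8.04% in arsenite in S2 cells and 3.67, 1.32 and 1.11% in Schneider's and 4.5, 7.06 and 8.34% in arsenite in brains. Its differences were 5.04 ± 2 points, adjusted p = 0.111 in S2 cells and 4.6 ± 1.87 points, adjusted p = 0.274 in brains.

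For e(y)3 the S2 values were 17.6, 14.6 and 14.2% in Schneider's and 28.3, 22.8 and 23.7% in arsenite, a difference just outside the threshold (9.49 ± 2.45 points, adjusted p = 0.0431). Brains had 5.58, 9.69 and 5.8% in Schneider's and 11.6, 12.5 and 8.02% in arsenite, where the ranges overlapped. The small subunits Bap60, Bap111 and Snr1 had 1, 8 and 6 positions, differences in S2 cells of 11.4, 4.32 and 1.26 points, and no call in either tissue.

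Of the ISWI, CHD and INO80-type remodellers, 4 of 7 were called in S2 cells, beside 23.6% of all genes, and the roles were not tested against each other. In wells 4 of 7 were called here as well, 4 of 8 SWI/SNF genes and 4 of 7 genes of the trithorax group. Fewer were called there of the Polycomb genes (2 of 9) and of the deacetylase, chaperone and heterochromatin genes (2 of 5). Over all 36 genes the share called in wells was 44.4%, beside 22.6% of all tested genes. E(bx) had 7.92, 8.11 and 14.8% in Schneider's and 32.7, 30.6 and 26.1% in arsenite, so that the lowest arsenite sample was at 1.77 times the highest Schneider's sample. The difference was 19.5 ± 3.09 points (SE), adjusted p = 0.0219. In brains E(bx) had 3.92, 3.27 and 3.06% in Schneider's and 16.4, 7.36 and 9.08% in arsenite, a smaller difference of 7.52 ± 2.78 points, adjusted p = 0.238, which was not called.

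Acf, the large subunit of the ACF nucleosome-spacing complex, had 6.61, 8.03 and 6.81% in Schneider's and 24.99, 20.5 and 15.9% in arsenite in S2 cells and differed by 13.3 ± 2.86 points (SE), adjusted p = 0.0307. In brains it had 2.91, 3.92 and 2.18% in Schneider's and 15.8, 3.94 and 9.23% in arsenite, a difference that was not called. Chd1, a remodeller of transcribed genes, had 13.9, 19.8 and 11.4% in Schneider's and 34.5, 30.8 and 24.6% in arsenite in S2 cells, a difference of 14.9 ± 3.72 points (SE), adjusted p = 0.0402. Its brain values, 6.88, 7.57 and 2.4% in Schneider's and 17.6, 18.3 and 11.7% in arsenite, did not overlap and gave 10.3 ± 2.69 points, adjusted p = 0.165, just outside the threshold.

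For dom the S2 values were 16.6, 13.5 and 12.2% in Schneider's and 29.7, 22.5 and 24.4% in arsenite, a difference of 11.4 ± 2.78 points (SE), adjusted p = 0.0382. Brains had 6.02, 7.09 and 6.42% in Schneider's and 14.9, 8.31 and 8.23% in arsenite, with arsenite above Schneider's in every sample but with 3.96 ± 2.4 points, adjusted p = 0.387.

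Iswi, the ATPase shared by NURF and ACF, was called in brains and not in S2 cells. The brain values were 1.98, 2.9 and 2.8% in Schneider's and 10.3, 9.64 and 8.85% in arsenite, a difference of 7.04 ± 1.51 points (SE), adjusted p = 0.139. In S2 cells the values were 6.47, 10.4 and 6.05% in Schneider's and 23.6, 5.83 and 8.76% in arsenite, where only replicate 1 was high (5.08 ± 5.2 points, adjusted p = 0.451). The interaction of tissue and treatment for Iswi was -1.96 points (S2 minus brain effect, adjusted p = 0.859), so the tissues are not shown to differ.

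Mi-2, the ATPase of the NuRD complex, had 11.9, 16.1 and 14.8% in Schneider's and 15.9, 16.5 and 20.7% in arsenite in S2 cells, and the groups overlapped (3.42 ± 2.41 points, adjusted p = 0.305). In brains it had 3.34, 5.15 and 3.1% in Schneider's and 13.4, 12.8 and 7.6% in arsenite without overlap (7.41 ± 2.21 points, adjusted p = 0.182).

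The gene kis was the only one of the 35 whose estimate lay below 0 in both tissues. In S2 cells it had 18.6, 16.6 and 17.3% in Schneider's and 11.1, 11.7 and 15.6% in arsenite, so that every arsenite sample was below every Schneider's sample. The difference of -4.67 ± 2.15 points, adjusted p = 0.149 was not called. In brains kis had 6.4, 10.7 and 9.66% in Schneider's and 7.42, 2.95 and 7.29% in arsenite, with overlap (-3.04 ± 2.22 points, adjusted p = 0.461). When positions with under 10 reads were left out of each sample's average the estimates turned to 0.0135 points in S2 cells and 1.502 points in brains, neither called.

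The kis transcript was split into 4 stretches of equal length and the reads of 3 replicates were summed. The first stretch had 12.5% of 561 reads edited in Schneider's and 10.1% of 466 in arsenite in S2 cells. The second had 12.5% of 272 and 14.6% of 212, the third 15.2% of 66 and 14.9% of 94, and the last 26.6% of 154 and 18.1% of 204, so that the arsenite share was lower at both ends, higher in the second stretch and about level in the third. In brains the last stretch had 37 of 311 reads edited in Schneider's and 30 of 300 in arsenite. A single position there, 2L 214328, which was edited in 6 of 16 reads of uninduced brains, gave 23 of the 37 edited reads (of 57 reads) and 18 of the 30 (of 52 reads). In E(bx) the same count gave 7.71% of 506 and 20.3% of 310 in the first stretch and 13.3% of 90 and 50.6% of 77 in the last, in S2 cells, so that the arsenite shares were the higher ones at both ends. These sums were not tested.

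Of the trithorax-group genes, COMPASS genes, Utx and nej, 1 of 7 was called in S2 cells and 1 of 7 in brains, and it was Utx both times. Utx, a demethylase of the histone mark that Polycomb lays down, had 7.5, 0 and 4% in Schneider's and 32.4, 21.3 and 29% in arsenite in S2 cells and 1, 4 and 1.54% in Schneider's and 19.2, 16.5 and 15% in arsenite in brains. The groups did not overlap in either tissue. The differences were 23.7 ± 3.8 points (SE), adjusted p = 0.0221 in S2 cells, and 14.7 ± 1.95 points (SE), adjusted p = 0.0797 in brains. Utx rested on 5 positions and as few as 14 reads in a sample. In brains its call was lost with pooled reads (7.56 points), in the quasi-binomial test, without positions under 10 reads (0.356 points) and with an adjusted p under 0.05 as the threshold, and the 1 Utx position that could be tested there differed by -0.612 ± 3.46 points.

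The gene trx was high without arsenite in S2 cells, with 19.98, 19.8 and 18.1% in Schneider's and 22.9, 23.2 and 20.1% in arsenite. All arsenite samples were above all Schneider's samples by a small margin (2.82 ± 1.98 points, adjusted p = 0.304). In brains trx had 5.4, 9.93 and 4.13% in Schneider's and 16.03, 9.27 and 9.27% in arsenite, and the groups overlapped.

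Its relative trr had 12.5, 21.98 and 27.3% in Schneider's and 29.4, 36.5 and 40.4% in arsenite in S2 cells and 6.67, 9.16 and 4.23% in Schneider's and 22.4, 16.1 and 11.4% in arsenite in brains. In neither tissue did the groups overlap, and the differences were 14.8 ± 4.97 points, adjusted p = 0.0757 and 9.96 ± 3.32 points, adjusted p = 0.212. The histone methyltransferase ash1 had 4.55, 5.67 and 2.6% in Schneider's and 11.4, 21.5 and 8.33% in arsenite in S2 cells and 0, 0 and 0% in Schneider's and 17.7, 6.6 and 0% in arsenite in brains, where no edited read was seen in Schneider's.

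The acetyltransferase nej, the fly CBP, had the highest Schneider's values among genes with 10 or more positions, at 27.3, 28.7 and 27.5% in Schneider's and 32.05, 32.97 and 33.6% in arsenite in S2 cells. Arsenite lay above in every sample, by 5.06 ± 1.8 points, adjusted p = 0.0868. At 1 of its 21 positions, X 9671689, every S2 read had G, 8 of 8 uninduced, 25 of 25 in Schneider's and 7 of 7 in arsenite. This G was there without induction, and whether it is an edit or a difference in the genome was not tested. Without the positions edited in an uninduced sample, nej had 19.5, 22.96 and 21.5% in Schneider's and 23.5, 26.4 and 26.9% in arsenite. Brains gave 13.7, 10.6 and 14.2% in Schneider's and 20.5, 12.1 and 15.5% in arsenite for nej, with overlap. The COMPASS genes Set1 and ash2 rested on 6 positions and 1 position, and neither was called.

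Of the Polycomb genes in the bulk data, 2 of 8 were called in S2 cells and none of 7 in brains. The paralogs ph-p and ph-d, which code for PRC1 subunits with a polymerizing domain, lie in tandem on X (ph-d at X, 2115727 to 2123286 and ph-p at X, 2126210 to 2138371). The authors kept uniquely aligned reads, so that reads from near-identical stretches of the pair may be lost or misassigned, and their values are uncertain to that extent.

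In S2 cells ph-d had 3.43, 4.44 and 3.77% in Schneider's and 23.3, 29.5 and 28.5% in arsenite, the lowest p of all 35 genes (23.2 ± 2.39 points (SE), adjusted p = 0.0182). In brains it had 4.95, 9.34 and 7.67% in Schneider's and 14.6, 8.62 and 12.8% in arsenite, with overlap. The arsenite effect of ph-d was larger in S2 cells than in brains by 18.5 ± 3.22 points (SE), adjusted p = 0.0244. Its paralog ph-p had 24.4, 9.62 and 13.9% in Schneider's and 23.9, 19.3 and 17.9% in arsenite in S2 cells, with overlap (4.41 ± 4.45 points, adjusted p = 0.444), and 5.88, 10.1 and 7.53% in Schneider's and 18.9, 17.8 and 12.5% in arsenite in brains without overlap (8.55 ± 2.45 points, adjusted p = 0.176).

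Asx, the partner of a histone H2A deubiquitinase, was the other called gene, with 6.92, 12.3 and 10.4% in Schneider's and 23.99, 27.6 and 41.6% in arsenite in S2 cells and 21.2 ± 5.14 points (SE), adjusted p = 0.0382. In brains Asx had 8.46, 6.39 and 5.45% in Schneider's and 14.03, 13.7 and 11.7% in arsenite, without overlap (6.39 ± 1.74 points, adjusted p = 0.171). Su(z)2, a PRC1 subunit, had 16.97, 13.4 and 21.7% in Schneider's and 28.3, 24.9 and 14.4% in arsenite in S2 cells and 11, 13.1 and 16.6% in Schneider's and 22.8, 22.5 and 14.5% in arsenite in brains, and in both tissues the groups overlapped.

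The PRC2 genes had few positions, 3 in E(z), the methyltransferase itself, 5 in Su(z)12 and 3 in esc. The S2 differences of E(z), Su(z)12 and esc were 19.3, 11.5 and 12.2 points with adjusted p of 0.0536, 0.0483 and 0.157, and none was called. No edited read of esc was found in any brain sample, with as few as 4 reads in a sample. Psc, a PRC1 subunit next to Su(z)2 in the genome, differed by 2.98 points in S2 cells and 4.13 points in brains, with no call.

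Among the deacetylase, chaperone and heterochromatin genes, 2 of 5 were called in S2 cells and 1 of 5 in brains. Sin3A was called in both tissues and in single wells. It had 7.27, 5.7 and 4.28% in Schneider's and 21.8, 18.2 and 19.9% in arsenite in S2 cells, so that the lowest arsenite sample was at 2.5 times the highest Schneider's sample. In brains it had 2.13, 3.28 and 1.65% in Schneider's and 13.5, 8.78 and 8.69% in arsenite. The differences were 14.2 ± 2.08 points (SE), adjusted p = 0.0204 in S2 cells, and 7.96 ± 2.02 points (SE), adjusted p = 0.161 in brains. The Sin3A call in S2 cells held under each of 17 alternative settings, and that in brains under 8 of 17.

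Caf1-55 had 7.76, 4.74 and 7.01% in Schneider's and 13.5, 14.8 and 13.99% in arsenite in S2 cells, tight groups that did not overlap, and differed by 7.57 ± 1.91 points (SE), adjusted p = 0.0409. In brains it had 4.1, 3.2 and 5.13% in Schneider's and 9.58, 11.2 and 7.23% in arsenite, also without overlap (5.18 ± 1.81 points, adjusted p = 0.226). HDAC1, the deacetylase that Sin3A binds, differed by 6.98 ± 2.1 points, adjusted p = 0.0606 in S2 cells over 4 positions. Su(var)205, which codes for a heterochromatin protein that binds methylated histones, had estimates of -0.175 points in S2 cells and 3.76 points in brains. Su(var)3-9, a histone methyltransferase of heterochromatin, had 2 positions and as few as 3 reads in a sample, and its S2 arsenite values of 16.7, 30.3 and 80% rest on that depth.

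**Figure D4:**
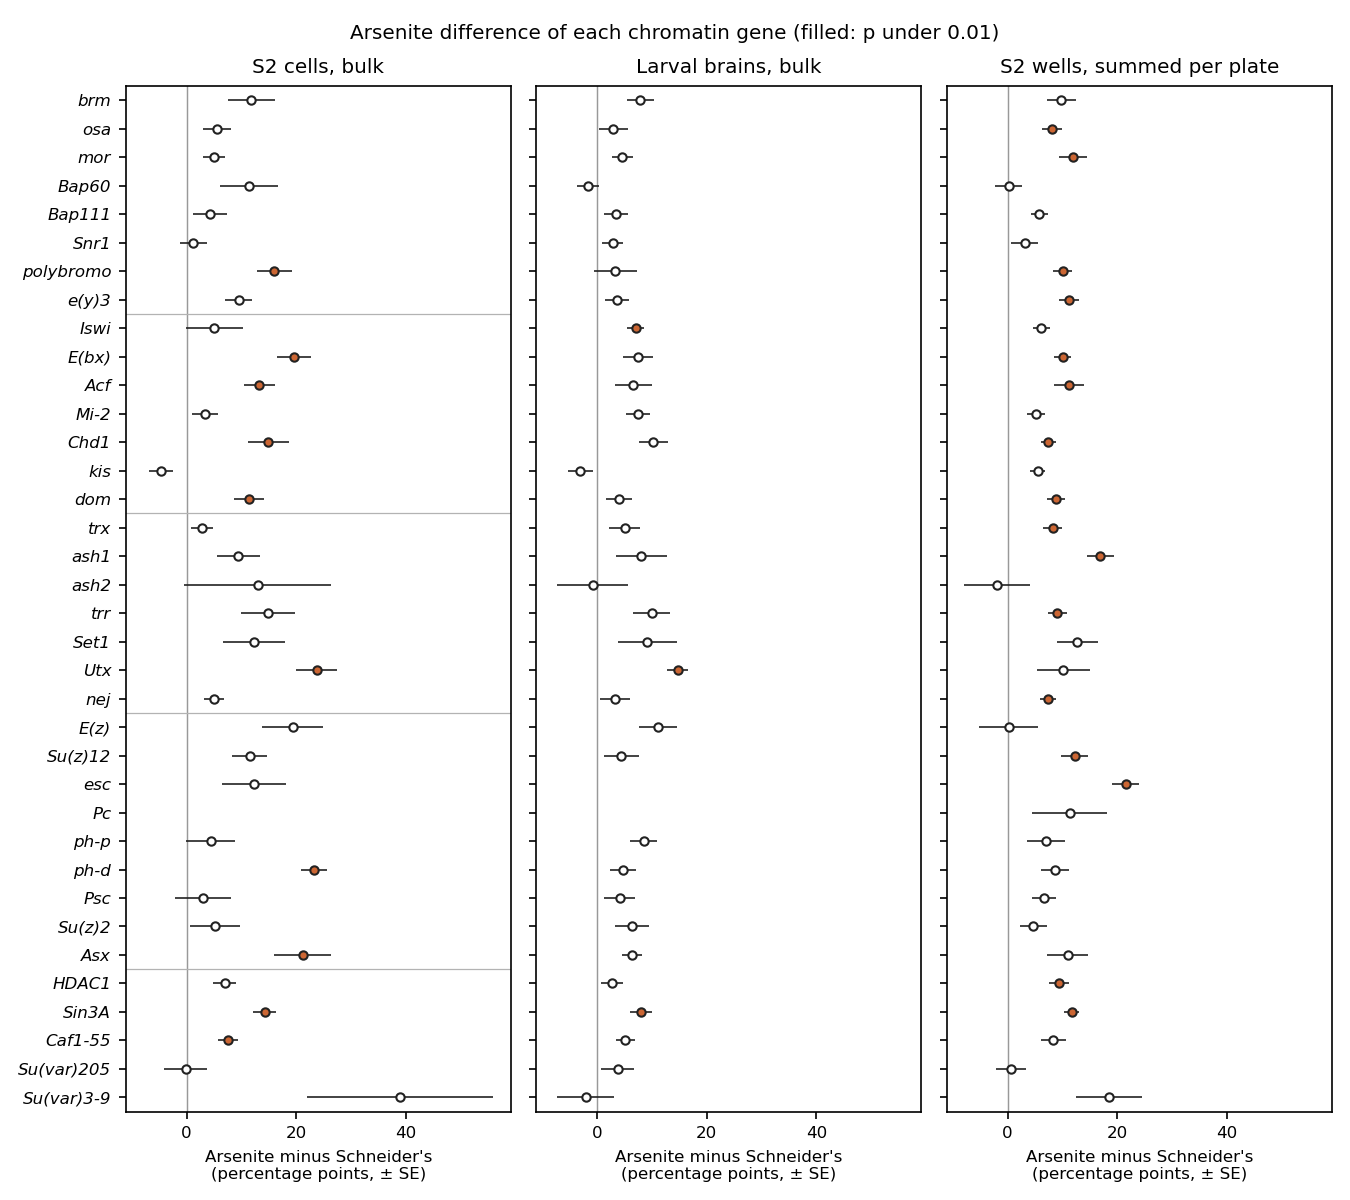
Arsenite minus Schneider's difference in percentage points with its SE (horizontal) of each gene (rows, ordered by role) in bulk S2 cells, bulk brains and S2 wells summed per plate, where filled points have p under 0.01. The filled points number 10, 3 and 16, and kis lies left of 0 in both bulk panels and right of 0 in the wells.

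In brains the 3 called genes (8.82% of 34) were Utx, Iswi and Sin3A, where 6.06% of the 4192 tested genes were called higher. None of the 3 had an adjusted p under 0.05 (0.0797 to 0.161), and 1 gene of all 4192 did. The median difference over the 34 genes was 4.85 points, beside 4.87 over all tested genes. Every arsenite sample lay above every Schneider's sample in 15 of the 34 genes, and in 27.5% of all genes. With brain arsenite replicate 3 left out 5 of the genes were called, and with any 1 of the Schneider's replicates left out 1 was.

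The effects in S2 cells and brains were compared in 1 fit of the 12 induced samples. The interaction passed for 1 of 35 genes, ph-d, or 2.86%, where 8.83% of 4963 genes had a larger effect in S2 cells. E(bx) came next, with an effect larger in S2 cells by 12.01 ± 4.15 points, adjusted p = 0.134. The median interaction was 4.198 points over the 35 genes and 5.56 points over all genes. Pooled reads in place of averages gave 5 genes, and leaving out 1 sample gave between 1 and 4, with 2 without Schneider's replicate 2 or 3 or arsenite replicate 1 of S2 cells, 3 without S2 arsenite replicate 2 or brain arsenite replicate 1, and 4 without S2 arsenite replicate 3.

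In Schneider's, without arsenite, 5 of 35 genes (14.3%) were called more edited in S2 cells than in brains, beside 16.2% of all 4963 genes, and none was called less edited. They were nej (15.02 ± 2.2 points (SE), adjusted p = 0.0031), trx (12.8 ± 2.37 points, adjusted p = 0.00823), Mi-2 (10.4 ± 2.2 points, adjusted p = 0.014), kis (8.56 ± 2.05 points, adjusted p = 0.0221) and e(y)3 (8.45 ± 2.21 points, adjusted p = 0.0307). Without positions edited in an uninduced sample the difference of nej was 11.2 points and still called, and e(y)3 was no longer called. The promoter that drives the fusion differs between the systems and cannot be told apart from the tissue. Without brain Schneider's replicate 1 the count was 3.

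In single wells the reads of a plate and condition were summed and the average editing frequency was computed from the sums, so that n = 2 plates per condition. The study does not say whether the plates came from separate cultures or treatments. Well p-values therefore measure the spread between plates, which may be technical. The fit held the sums of every condition with cells, so the Krebs-Ringer and 2 h sums shared in its estimate of spread. Read numbers over the 36 genes were between 50202 and 58824 for Schneider's and arsenite sums, over 1821 positions. Reads at kis positions were found in 382 of the 384 Schneider's and arsenite wells, at E(bx) and dom positions in 377 each, and at ash2 and E(z) positions in 84 and 88.

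Arsenite was called higher in 16 of the 36 genes (44.4%), beside 22.6% of 6231 genes, and lower in none. Both arsenite sums lay above both Schneider's sums in 31 genes, which was so for 65.5% of all genes. The median difference was 8.73 points, beside 8.62 over all tested genes. These genes have more positions than most, and the part of that in the counts was not tested. With only the 4 Schneider's and arsenite sums in the fit, 3 genes were called, Sin3A, ash1 and esc. This fit has 2 residual degrees of freedom and another estimate of spread, and the part of each in the lower count was not tested.

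Sin3A rose from 3.08% and 2.7% on plates 1 and 2 to 15.3% and 13.8% (11.7 ± 1.43 points (SE), adjusted p = 0.0222). The PRC2 gene esc was at 0 in both Schneider's sums and at 24.1% and 19.1% in arsenite, over 5 positions and with 21.6 ± 2.45 points, adjusted p = 0.0222. The 74 and 55 reads in Schneider's allow shares of up to 4.05% and 5.45%. A position is present only where edits were called, and none of these edits came from the 4 h Schneider's wells. At the 2 positions also in bulk, 0 of 21 and 0 of 17 reads were edited in Schneider's and 1 of 26 and 4 of 16 in arsenite. The part of this selection in the difference was not tested. For ash1 the sums were 7.03% and 3.28% in Schneider's and 22.1% and 22.1% in arsenite, a difference of 16.9 ± 2.5 points, adjusted p = 0.0242. E(bx) had 6.02% and 5.12% and 16.8% and 14.5% (10.1 ± 1.56 points, adjusted p = 0.0251).

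Of the 10 genes called in bulk S2 cells, 6 were called in wells as well (6 of the 16 called there): Acf, Chd1, E(bx), Sin3A, dom and polybromo. The other 4 were ph-d, Utx, Asx and Caf1-55, whose adjusted p in wells lay between 0.0515 and 0.176. In ph-d the Schneider's sums were 6.36% and 7.34% and the arsenite sums 12.3% and 18.6%. Pc, the chromodomain subunit of PRC1 that reads the Polycomb mark, was seen in wells only, with 12.2% and 0% in Schneider's and 26.3% and 8.61% in arsenite over 10 positions, and was not called.

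The long genes trx and e(y)3, not called in bulk, were called in wells. For trx the sums were 7.43% and 4.36% in Schneider's and 14.8% and 13.5% in arsenite (8.23 ± 1.78 points, adjusted p = 0.0337). For e(y)3 they were 5.76% and 5.03% and 18.05% and 15.2% (11.2 ± 1.81 points, adjusted p = 0.0251). The plates pair the sums, and with the plate as a block 13 genes were called. Of the 16, osa, Acf, nej and Su(z)12 were then no longer called, and brm was called in addition.

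For kis the wells went the other way from the bulk samples. The sums were 5.7% and 4.55% in Schneider's and 10.5% and 10.7% in arsenite, a difference of 5.48 ± 1.4 points, adjusted p = 0.0458, just outside the threshold. At the 39 of its 290 well positions that are also bulk positions, 14.3% and 10.9% of reads were edited in Schneider's and 20.2% and 21.5% in arsenite, each of at least 2158 reads.

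In Krebs-Ringer buffer the median over the 36 genes was 9.20% on plate 1 and 8.86% on plate 2. This lies between Schneider's (5.54% and 4.22%) and arsenite (14.6% and 12.6%). Both Krebs-Ringer sums lay above both Schneider's sums in 28 of the 36 genes, and in 43.5% of all genes. Both arsenite sums lay above both Krebs-Ringer sums in 24 of the 36 genes, and in 44.4% of all genes. For ph-p both Krebs-Ringer sums, at 16.5% and 24.9%, lay above its arsenite sums of 15.3% and 11.8%, on 126 to 184 reads per sum. Su(z)2, Snr1, Bap60 and E(z) had this order too, and the share of all genes with it was not counted. After the shorter induction the medians were 4.203% and 4.18%. Only arsenite against Schneider's was tested.

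Single wells differed widely within a condition. Over wells with at least 50 reads at positions of the 36 genes, the edited share of those reads had a median of 9.60% on plate 1 in arsenite, with quartiles of 1.81% and 20.8% and a highest well at 36.8%. On plate 2 the arsenite median was 11.3%, with quartiles of 2.77% and 19.5%. In Schneider's the medians were 3.39% and 3.37%, with highest wells at 21.1% and 20.5%. The distributions overlapped, and an edited read of these genes was found in 87 of 90 and 90 of 92 arsenite wells.

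The share over the 36 genes followed that over all other genes of the same well. Pearson's r across wells was 0.940 and 0.949 in Schneider's and 0.971 and 0.964 in arsenite, as a description over 90 to 93 wells that share library, depth and expression of the fusion within each well.

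**Figure D5:**
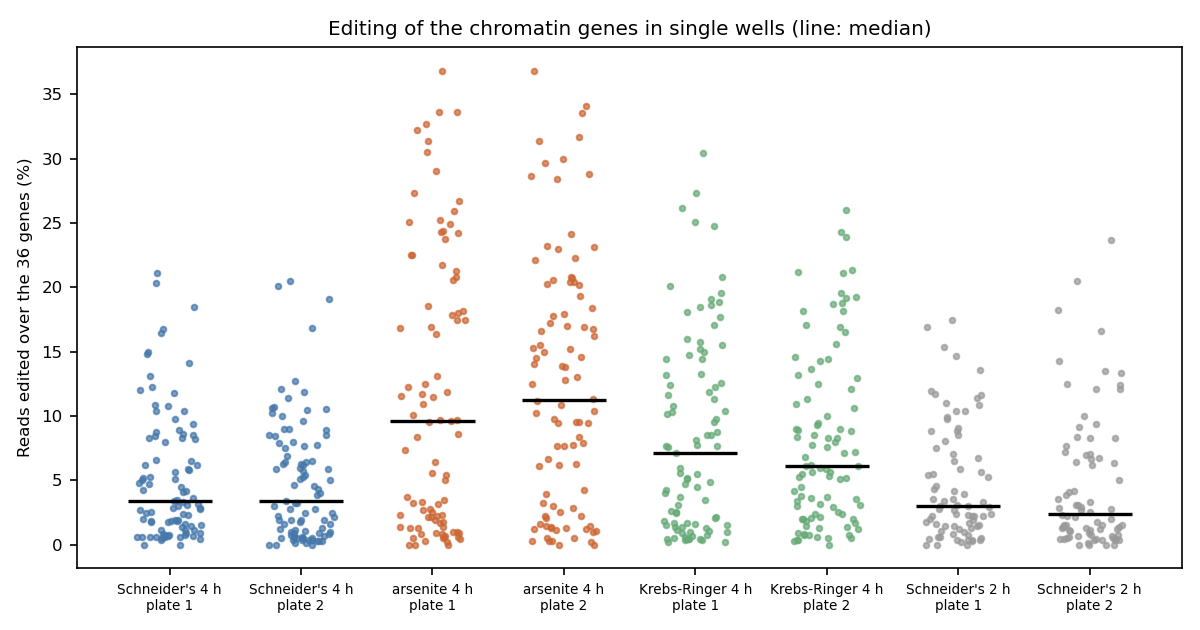
Percent of reads edited over the 36 genes (vertical) in each well with at least 50 such reads (points) by condition and plate, with the median as a line. Arsenite wells reach 36.8% while many stay near 0, and the medians are 3.39% and 3.37% in Schneider's and 9.60% and 11.3% in arsenite.

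A wider list of 97 other chromatin gene names gave the following counts, which were not tested as a list. In S2 cells 16 of 81 tested genes rose, beside 23.6% of all genes, and none fell, with a median difference of 10.4 points. In brains 8 of 78 rose, beside 6.06% of all genes, and 1 fell, with a median of 6.75 points. In wells 32 of 87 rose, beside 22.6% of all genes, and none fell, with a median of 8.7 points.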

How the data were processed

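The study profiled RNA by VASA-seq in 14 bulk samples and 2 plates of single S2 cells. According to the authors' methods, reads were trimmed with cutadapt 3.2, ribosomal reads were removed with BWA 0.7.17-r1188, the rest were aligned to BDGP6 with STARsolo 2.7.7a keeping unique alignments, duplicates were collapsed with UMI-tools 1.1.1, and variants were called with GATK 4.1.9.0 on merged alignments. The authors deposited each gene's average editing frequency as a fraction of reads, and variant tables with edited and total read counts per position. Tables of the authors' own comparisons (differences and p-values of an empirical Bayes test from another R package) were not used. The variant tables also held 20 libraries of no listed sample, which were not used.

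A-to-G positions were kept at call quality above 250 and allele frequency under 0.95, which gave the deposited average of all 5003 bulk genes within 1e-06. Multiplied by 100, the averages were fitted with limma 3.58.1 in R 4.3.3 without transformation. Bulk fits of arsenite against Schneider's held only the 6 samples compared, and both fits across tissues held the 12 induced samples. The well fit held the sums of every condition with cells, Krebs-Ringer and 2 h included. Genes above 0 in at least 1 sample or sum of the fit were tested, and a call needed an unadjusted p under 0.01. Benjamini-Hochberg adjusted p-values over all tested genes are printed. Well reads were summed per plate and condition. Positions were placed on the Ensembl 115 annotation of the same assembly. Python 3.11.15 and pandas 2.3.3 joined the tables, and exact binomial intervals used scipy 1.17.1. The comparison of genes in S2 cells, by limma and the quasi-binomial test, was tried on simulated reads with binomial counting error only. The fits of brains, of both tissues, of positions and of wells were not simulated.

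Depth was between 247155 and 458251 reads at A-to-G positions per bulk sample, so that a single position, at a median of 8 reads, is imprecise. Same-numbered bulk replicates did not deviate together (r of 0.055 at most), and no label pairs them, whereas the plates pair the well sums. Per-sample values are given for genes called in a bulk comparison or with 10 or more bulk positions, and site-by-site values for the 3 most read positions of the 4 genes with the most positions outside chromosome arm 2R. Other positions and genes named were chosen after their values were seen. The members, lists and tests were chosen with earlier results of these data known. Alternatives changed the average (pooled reads, arcsine), the filters on reads and quality, the samples in the fit, the test and the replicates included. Counts under an alternative, with a plate block or with a sample left out are given without the share of all genes called in the same way.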

Additional observations from a re-analysis of the deposited data

Results flagged for a closer look

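The arsenite effect of ph-d, which codes for a PRC1 subunit, differed between the tissues by 18.5 points in a fit with an interaction term over the 12 induced samples, with the larger effect in S2 cells. It was called under each of 17 alternatives, none of which left out positions under 10 reads or used the quasi-binomial test. In S2 wells the arsenite difference of ph-d was 8.62 ± 2.53 points (limma, adjusted p = 0.0619) and was not called. Reads of ph-d and its neighbour ph-p are hard to separate by unique alignment, and the part of that in the difference was not tested.

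The wells without a cell held a few reads at positions of the 36 genes, and some were edited. Their shares were above the 0.468% of uninduced bulk S2 cells, which comes from other libraries and from bulk positions only. On plate 1 the edited reads were 4 of 54 (7.41%, exact 95% interval 2.06% to 17.9%), and on plate 2 they were 5 of 40 (12.5%, 4.19% to 26.8%). These counts stand beside at least 42347 reads of the same genes in the occupied wells of each condition and plate. Between 4.16% and 12.9% of those reads were edited, a range that holds both empty-well shares. The source of the empty-well reads was not tested.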

How the results depend on the processing

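Beside the 10 genes called in S2 cells, a fit of all 14 samples called 16 and a quasi-binomial test on read counts 17. In brains, beside 3, the arcsine scale called 1, leaving out positions under 10 reads 5, a minimum of 20 reads per gene and sample 7, an adjusted p under 0.05 called 0 and the quasi-binomial test 10. The difference between tissues gave 5 genes with pooled reads and 2 with at least 20 reads, beside 1. The wells gave 3 beside 16 when only Schneider's and arsenite sums were fitted. Positions called in S2 cells, 8 in all, were 27 at 5 reads, 2 at 20 reads and 13 by Fisher's exact test on pooled reads, and those in brains, 10 in all, were 20, 1 at 20 reads and 1 at an adjusted p under 0.05. The shares of all genes or positions called under these settings are not given. The counts therefore show only how calls depend on the setting, and do not set these genes against others. The causes were not tested.

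With 1 sample left out, the counts ranged from 5 to 9 in S2 cells, 1 to 5 in brains, 1 to 4 for the difference, 3 to 7 between tissues in Schneider's, 4 to 16 for S2 positions and 7 to 16 for brain positions. The S2 count was 5 without Schneider's replicate 1. With the replicate number as a block, 6 genes were called in S2 cells and 2 in brains, although the numbers do not pair the bulk samples (r between -0.0522 and 0.0617 over all pairs of replicates).

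Of the alternatives for single called genes and kis, 363 kept the direction and the side of the threshold, 85 lost the call, and 2 turned the sign, both of kis without positions under 10 reads (0.0135 points in S2 cells and 1.502 points in brains). In S2 cells Sin3A was called under all 17 alternatives. ph-d was called under the 16 and Utx under the 15 in which they could be tested. Both are thinly read, and no single position of either could be tested in S2 cells. E(bx) was called in all but the block, and polybromo in all but the one without positions under 10 reads. The other 5 kept their call less often, Acf under 11 of 17 alternatives, Asx under 10, dom under 9, and Chd1 and Caf1-55 under 8 each. In brains Utx kept its call under 13 of 17 and Iswi under 9. The choice to leave out positions edited in an uninduced sample was added after the data were seen. At a median of 8 reads, the share at a single position is coarse.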

Other observations

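Uninduced samples held few edits in these genes. In S2 cells 23 of the 35 genes were at 0 and the highest was nej at 5.56%, with 8 of its 9 reads with G at X 9671689. In brains 19 were at 0 and the highest was Su(z)2 at 6.99%.

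Some positions had G in similar shares of reads with and without induction. Whether these are edits or differences in the genome was not tested. The nej position X 9671689 was read as G in every S2 read, but in 1 of 10 uninduced, 3 of 27 Schneider's and 1 of 19 arsenite reads of brains. In kis, 2L 214328 was edited in 6 of 16 uninduced, 23 of 57 Schneider's and 18 of 52 arsenite reads of brains. In Bap111, which codes for a SWI/SNF subunit, X 9151310 was edited in 4 of 22, 13 of 48 and 20 of 62 brain reads in the same order, and in none of 36 Schneider's reads of S2 cells. In Set1, 3L 25112816 was edited in 3 of 8, 5 of 14 and 2 of 7 brain reads.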
